A study of Mus musculus with 12 samples.

Results

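The cytosolic ribosomal protein genes encode the proteins of the ribosome that translates messenger RNA in the cytoplasm. They were chosen by name as the protein-coding genes whose GENCODE M21 symbol begins with Rpl (large subunit) or Rps (small subunit), the 3 stalk genes Rplp0, Rplp1 and Rplp2 included. S6 kinase genes (Rps6k) and gene models with pseudogene names were left out. Of 86 genes that matched, 83 had at least 10 raw counts summed over the 12 libraries, out of 46078 genes listed in all. The remaining 3, Rpl3l, Rpl10l and Rpl39l, are paralogs and had 4, 0 and 3 counts. The 83 genes comprised 43 of the large subunit, 3 of the stalk, 31 of the small subunit, and 6 that are paralogs or bear the name without being a core subunit (Rpl7l1, Rpl22l1, Rpl36al, Rps27l, Rps27rt and Rps19bp1). After the filter on low counts, 82 of them were tested among 15823 genes. Rps27rt, with 96 counts in all, did not pass that filter.

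Gene expression was measured by RNA sequencing of scrapings of the proximal ileal epithelium from male C57BL/6 mice. They received by gavage either sesame oil (vehicle) or the dioxin TCDD at 3, 10 or 30 µg/kg, a ligand of the transcription factor AhR (the receptor for aryl hydrocarbons). Treatment began at 28 days of age, was given 7 times at intervals of 4 days, and tissue was taken at 56 days of age. Each of the 4 groups had 3 libraries, numbered here in accession order. The labels give all groups the same strain, sex, diet and schedule, and name no genetic change in any of them.

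Ribosomal proteins are made in near-equal numbers, 1 copy of most per ribosome, and assemble with ribosomal RNA in the nucleolus. Their messenger RNAs are short and abundant, and most begin with a stretch of pyrimidines (the 5′ terminal oligopyrimidine, or TOP, motif) through which growth signals control their translation. The acidic stalk proteins recruit elongation factors. In the intestine, the crypts, which hold stem cells, dividing progenitors and secretory Paneth cells, are known for strong protein synthesis.

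Ribosomal protein genes are also known for their many processed pseudogene copies. Reads that aligned to more than 1 place were kept out of gene counts by the authors, so each value below rests on reads that aligned to 1 place. Of the 50-base stretches in the principal transcript of Rps27 (ENSMUSG00000090733, a small-subunit zinc finger protein), 98.6% were also present in an annotated transcript of a gene elsewhere, on either strand. The share was 91.1% for Rps27rt, 22.4% for Rps27l, and 0% for Rps19bp1. The length of the reads is not given in the sources used here, and 50 bases stand in for it. The first 90 coding bases of the Rps27 family are shown because they show how alike these genes are, with capitals marking bases that differ from Rps27 (GENCODE M21 transcripts, GRCm38).
Rps27 (chromosome 3): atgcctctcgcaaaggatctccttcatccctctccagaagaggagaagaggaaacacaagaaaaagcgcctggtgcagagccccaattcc
Rps27rt (chromosome 9): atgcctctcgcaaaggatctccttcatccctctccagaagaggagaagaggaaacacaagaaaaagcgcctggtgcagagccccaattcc
Rps27l (chromosome 9): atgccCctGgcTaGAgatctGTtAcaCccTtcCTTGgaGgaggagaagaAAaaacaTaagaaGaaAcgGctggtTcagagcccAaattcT
The coding sequences of Rps27 and Rps27rt, 255 bases each with the stop codon, were identical, whereas Rps27l differed from Rps27 at 61 positions (76.1% identity). Over the same measure Rpl36al was 87.9% identical to Rpl36a, with 39 differences in 321 bases.

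The window of 30 bases around the annotated start is shown next for members that the results below turn on, from the RefSeq promoter table (GRCm38.p6), since the pyrimidine stretch at the start is what these genes are known to share. Each window runs from 15 bases before the start to 15 bases into the transcript, on the strand of the gene, and capitals mark its longest run of C and T.
Rps6, chr4:86857353-86857382, minus strand: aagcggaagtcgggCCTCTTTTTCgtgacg
Rpl38, chr11:114668565-114668594, plus strand: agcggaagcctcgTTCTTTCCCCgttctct
Rps24, chr14:24490663-24490692, plus strand: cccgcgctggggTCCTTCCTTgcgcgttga
Rps27, chr3:90213634-90213663, minus strand: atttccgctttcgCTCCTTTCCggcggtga
Rps23, chr13:90923107-90923136, plus strand: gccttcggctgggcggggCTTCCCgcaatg
Rpl41, chr10:128549154-128549183, minus strand: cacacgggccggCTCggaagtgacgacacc
An unbroken run of at least 8 C or T on the transcribed strand, within 25 bases of the annotated start on either side, was found for 32 of the 63 ribosomal protein genes in the table (50.8%). Among all 17492 protein-coding genes in the table the share was 22.0%. The run was present in the windows of Rps6, Rpl38, Rps24 and Rps27 and not in those of Rps23 and Rpl41. Because the search took in bases before the annotated start, presence or absence of the run does not show presence or absence of a TOP motif. The letters GCGTG, the core of the element that AhR is known to bind, were found on either strand in the 300 bases around the start for 36 of the 63 (57.1%), and for 41.4% of the protein-coding genes in the table.

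Total gene counts were between 11695887 and 22180274 per library, and the 82 tested ribosomal protein genes had between 843 and 63960 counts summed over the libraries, with a median of 11981. The 10 epithelial markers, among them Epcam and Vil1, were all detected. Their summed CPM (the usual count scaled to the total of gene counts) was 10746 to 11971 in vehicle and 12545 to 13508 at 30 µg/kg. It was also above vehicle at 3 µg/kg (12375 to 13316) and at 10 µg/kg (12364 to 13269). Of the 6 AhR target genes, Cyp1a1 among them, 4 rose at 30 µg/kg, and their summed CPM was 78.3 to 91.2 in vehicle and 2935 to 3389 at that dose. Ribosomal protein genes together took 0.434%, 0.465% and 0.438% of all gene counts in the vehicle libraries. The 3 µg/kg libraries had 0.399%, 0.561% and 0.537%, and the 10 µg/kg libraries had 0.529%, 0.462% and 0.557%. At 30 µg/kg the share was 0.797%, 0.811% and 0.819%, above each of the other 9 libraries. The means were 0.446% ± 0.017 in vehicle, 0.499% ± 0.087 at 3, 0.516% ± 0.049 at 10 and 0.809% ± 0.011 at 30 µg/kg (SD, n = 3 each). The 3 µg/kg libraries lay on both sides of the vehicle libraries, and 1 of the 10 µg/kg libraries lay within their range.

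**Figure D1:**
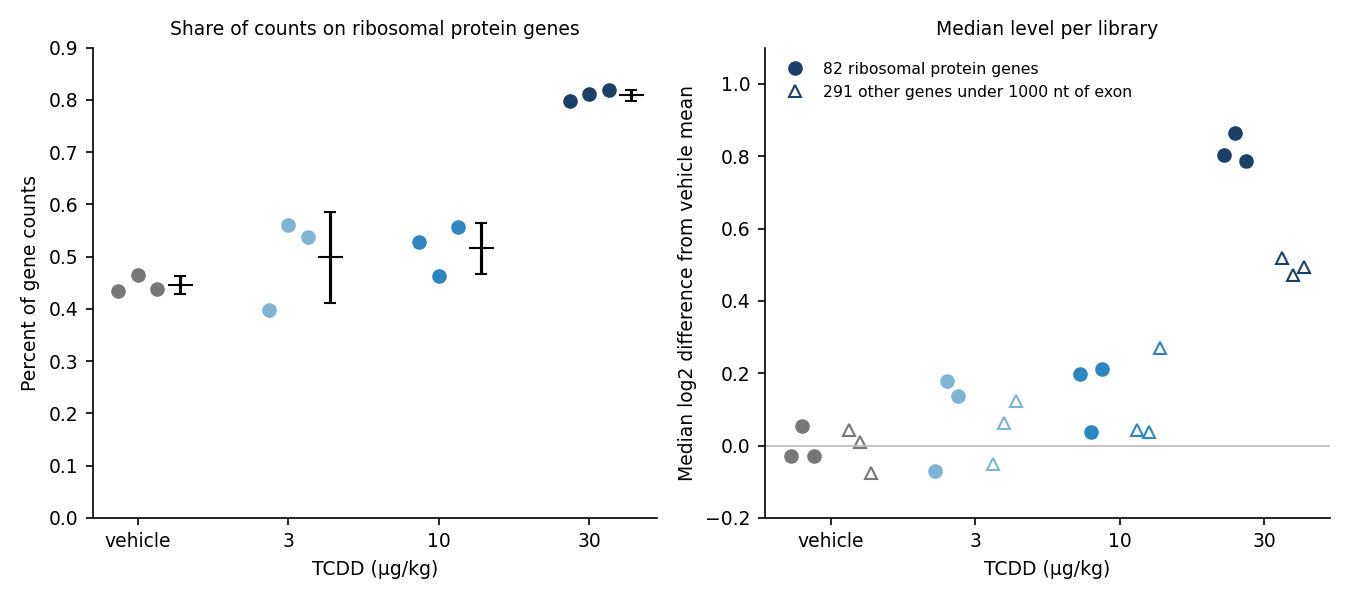
Left, percent of gene counts on the 83 ribosomal protein genes in each library (points), with the mean and SD of each group (bars), by TCDD dose in µg/kg. Right, the median over 82 ribosomal protein genes (filled circles) and over 291 other protein-coding genes with under 1000 nt of exon (open triangles) of the log2 difference from the vehicle mean, 1 point per library. The 3 libraries of 30 µg/kg lie at 0.797% to 0.819% in the left panel and at 0.79 to 0.86 for the ribosomal protein genes in the right panel, above the other 9 libraries in both.

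The first question was which ribosomal protein genes responded at each dose. A gene was called when edgeR's quasi-likelihood test gave an adjusted p (Benjamini-Hochberg, over the 15823 genes) under 0.05 and the change was at least 1.5-fold. At 30 µg/kg, 63 of the 82 rose and 0 fell, where 3.08% of all genes tested rose and 0.891% fell. By the adjusted p alone 74 were higher, against 4.3% of all genes, and at an unadjusted p under 0.05 by edgeR 77 were higher and 0 lower. DESeq2 called 62 and limma-voom 63, with 0 lower by either. The median log2 change of the 82 genes was 0.81, a fold of 1.76, and the median over all genes was -0.02. The lower and upper quartiles of the members were 0.63 and 1.12, and 27 members were at least 2-fold higher. In 79 of the 82 the 3 libraries of 30 µg/kg all lay above the 3 of vehicle (14.2% of all genes), and in 72 of them they lay above all 9 others (6.08% of all genes). Standard errors of these log2 changes were between 0.09 and 0.22.

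At the lower doses few members moved. At 3 µg/kg 1 of the 82 was called higher and 0 lower, where 0.0569% of all genes were called higher, and the median log2 change was 0.09. At 10 µg/kg 3 were called higher and 0 lower, where 0.487% of all genes were called higher, with a median of 0.15. These 3, Rpl27, Rpl39 and Rps23, became 1 with the library index as a block, and 0 or 1 when any of the 6 libraries of that comparison was left out. At an unadjusted p under 0.05, edgeR had 17 higher and 6 lower at 3 µg/kg, and 25 higher and 2 lower at 10 µg/kg, and DESeq2 and limma-voom called 0 lower at either dose. Between 10 and 30 µg/kg, 49 rose and 0 fell (2.17% of all genes rose), with a median of 0.69. Over the dose rank, 57 had a called upward slope and 0 a downward one (2.53% of all genes had an upward slope). The 57 became 37 without 30 µg/kg replicate 1, 34 without replicate 2 and 38 without replicate 3 of that dose. These comparisons share the vehicle or the 30 µg/kg libraries and are not independent of each other. The spread between the 3 libraries of a group, as the median coefficient of variation over members, was 7.05% in vehicle, 11.9% at 3, 9.40% at 10 and 5.13% at 30 µg/kg.

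**Figure D2:**
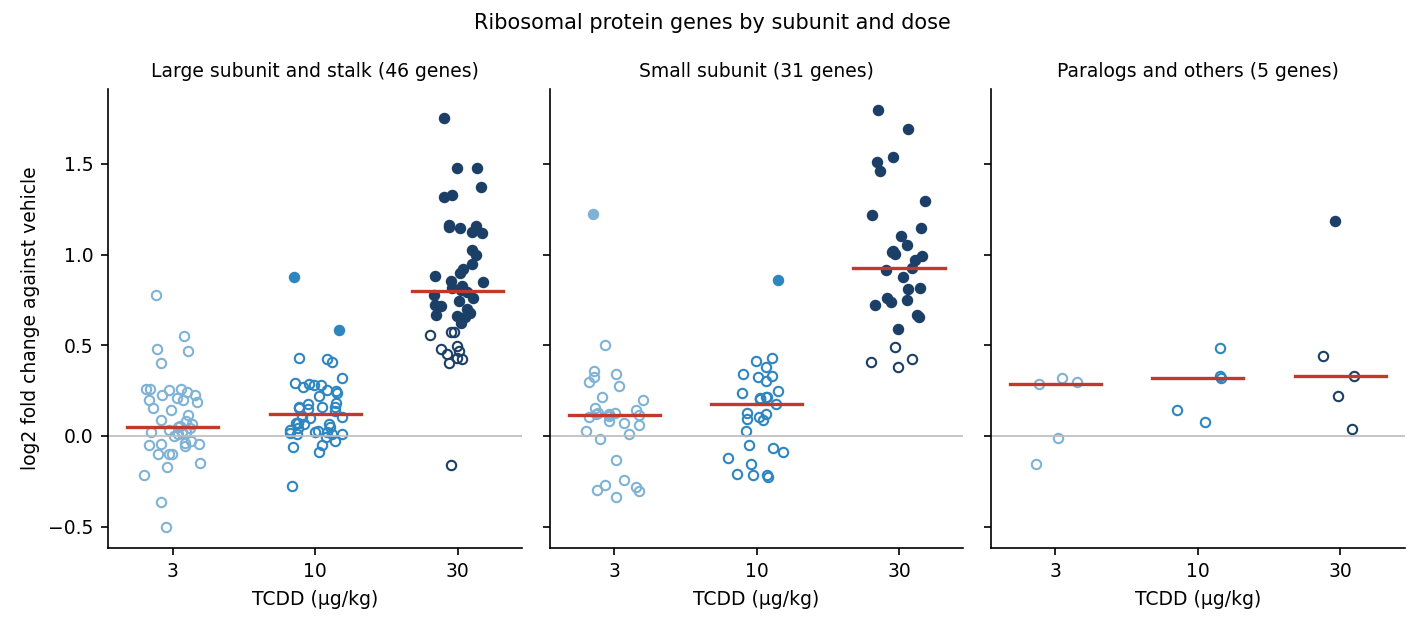
Log2 fold change against vehicle for each tested ribosomal protein gene at 3, 10 and 30 µg/kg, in panels for the large subunit with the stalk, the small subunit, and paralogs with other genes of the name. Filled points are called genes, open points are not, and red lines are medians, which at 30 µg/kg are 0.80, 0.93 and 0.33.

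Of the 3 stalk genes 2 rose at 30 µg/kg and 0 fell. Rplp0 (ENSMUSG00000067274, chr5:115559467-115563727), the stalk base and a widely used reference gene for quantitative PCR, had 142, 170 and 156 normalised CPM (scaled by TMM factors, as are all CPM of single genes here) in vehicle. It had 144, 155 and 160 at 3, 172, 142 and 165 at 10, and 222, 254 and 222 at 30 µg/kg. Its 30 µg/kg libraries were all above the others, yet its change of 1.49-fold (log2 0.57 ± 0.10 SE, adjusted p = 0.00499) was just under the 1.5-fold limit and it was not called. Rplp1 rose by 0.68 ± 0.11 (adjusted p = 0.00372) and Rplp2 by 0.78 ± 0.09 (adjusted p = 2.7e-04) on the log2 scale. The call of Rplp1 was lost without vehicle replicate 1 (0.58) and when a trend with exon length and GC content was removed (0.46, adjusted p = 0.043, or 0.43, adjusted p = 0.057, with mature transcript length). Removal of the mature length trend brought Rplp2 just below the fold limit (0.58). Rplp0 was called without vehicle replicate 2 (0.64), without 30 µg/kg replicate 1 (0.61) and without 30 µg/kg replicate 3 (0.61).

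Of the 43 other large-subunit genes, 33 rose at 30 µg/kg, 0 fell and 10 were not called, and their median log2 change was 0.82. Rpl41 (ENSMUSG00000093674, chr10:128548114-128549305), which encodes the smallest ribosomal protein, had 98.7, 98.1 and 90.6 CPM in vehicle. The 3 µg/kg libraries had 89.2, 101 and 88.7, those of 10 µg/kg had 98.1, 87.7 and 106, and those of 30 µg/kg had 328, 328 and 312. The first 3 groups overlapped and the last lay 3.37-fold above vehicle (log2 1.75 ± 0.09, adjusted p = 6.95e-07). The change from 10 to 30 µg/kg alone was 1.73 ± 0.09 (adjusted p = 2.47e-06). Rpl36 rose by 1.48 ± 0.11, and Rpl38, a protein known for its part in translating Hox messenger RNAs, by 1.32 ± 0.12.

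Rpl39 (ENSMUSG00000079641, X chromosome), a small protein at the exit tunnel, was among the genes that also moved at a lower dose. Its levels were 19.5, 19.4 and 18.1 CPM in vehicle and 27.5, 37.3 and 32.9 at 3 µg/kg. The 10 µg/kg libraries had 39.0, 26.3 and 39.4, and the 30 µg/kg libraries 52.5, 57.1 and 49.5. Each TCDD library was above each vehicle library, and the log2 change was 0.78 at 3 (adjusted p = 0.075), 0.88 at 10 (adjusted p = 0.020) and 1.48 at 30 µg/kg (adjusted p = 1.2e-04). Leaving out any library compared, other than 10 µg/kg replicate 2, ended the call at 10 µg/kg, as did the index block and a fit to the 6 libraries compared. Rpl27, named here after its values were seen, was called at 10 µg/kg with a log2 change of 0.59 ± 0.11, at the fold limit, and at 30 µg/kg with 1.37 ± 0.11. Its call at 10 µg/kg was lost without any 1 of the libraries compared, with the index block and under 5 other settings, limma-voom included.

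The proteins of the 5S ribonucleoprotein particle, Rpl5 and Rpl11, are known to bind Mdm2 when ribosome assembly is disturbed. Rpl5 had 85.1, 88.8 and 85.0 CPM in vehicle and 156, 154 and 148 at 30 µg/kg, a rise of 0.82 ± 0.09 (adjusted p = 1.6e-04). Rpl11 rose by 0.70 ± 0.12 (adjusted p = 0.00461), and this call was lost when a trend with mature transcript length and GC content was removed (0.50, adjusted p = 0.028). Rpl10, a late-joining protein of the subunit interface, rose by 0.92 ± 0.11.

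Some members of the same subunit were higher by adjusted p but did not reach the fold limit. Rpl4, which lines the exit tunnel and was the most highly counted member, had 263, 309 and 305 CPM in vehicle and 372, 405 and 384 at 30 µg/kg. The groups did not overlap, and the change was 1.32-fold (0.40 ± 0.10, adjusted p = 0.038). The same held for Rpl3, the protein nearest the peptidyl transferase centre (0.50 ± 0.13, adjusted p = 0.048), Rpl13a (0.48 ± 0.11, adjusted p = 0.020) and Rpl22 (0.47 ± 0.11, adjusted p = 0.021).

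Rpl24 was the only one of the 82 with a fitted change below 0 at 30 µg/kg, and it is named for that reason after its values were seen. Its levels were 6.43, 8.66 and 7.30 CPM in vehicle, 5.13, 6.19 and 6.05 at 3, 6.84, 7.18 and 9.13 at 10, and 6.33, 6.04 and 7.67 at 30 µg/kg. The groups overlapped and the log2 change was -0.16 ± 0.17 (adjusted p = 0.64). Its level was low for a core member, 7.25 RPKM (CPM per kilobase of exon) in vehicle, and 77.7% of its 50-base stretches occurred in other genes. Rpl24 was among 33 tested members that shared 50% or more, and the part of shared sequence in its low level was not tested. Whether another identifier in the authors' annotation took part of its reads was not tested.

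**Figure D3:**
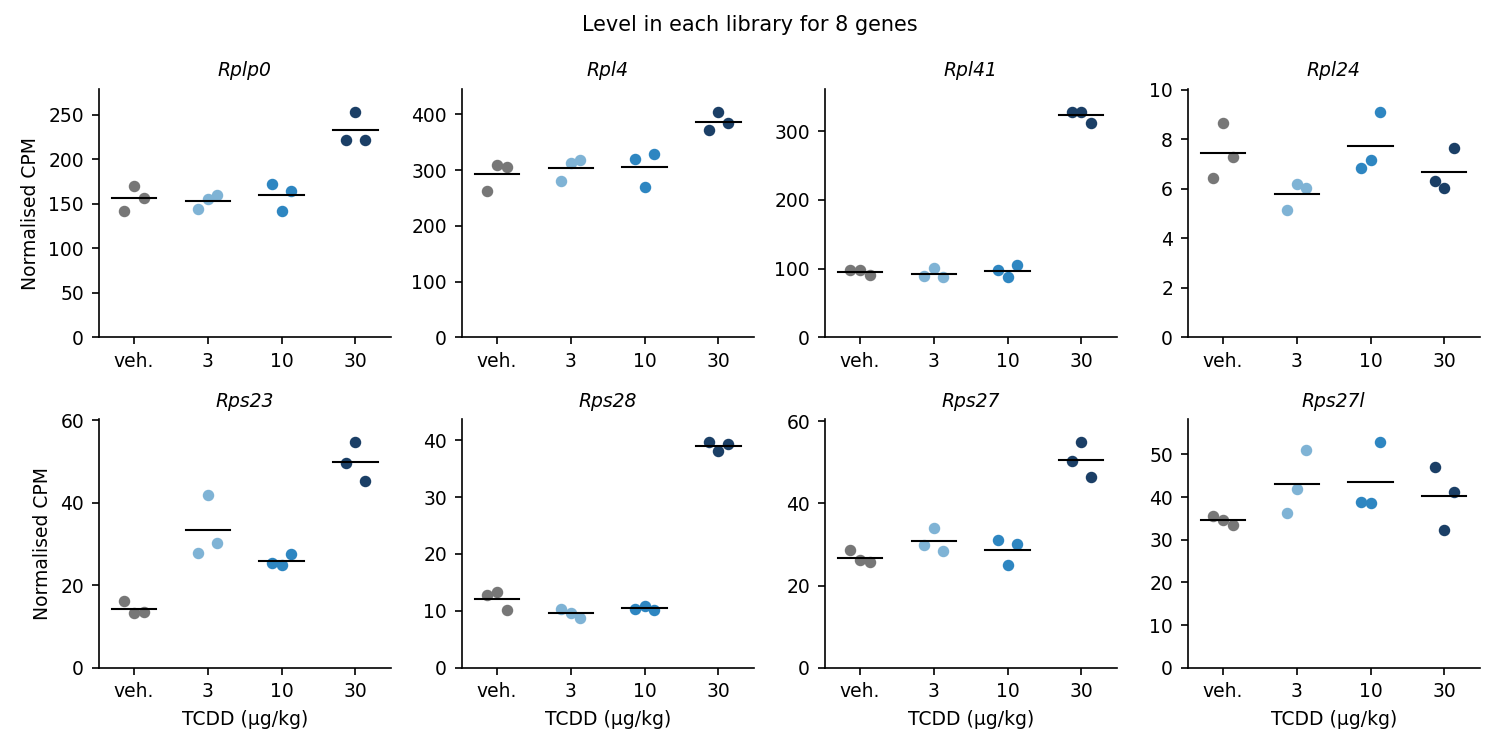
Normalised CPM in each library (points) and group mean (lines) for Rplp0, Rpl4, Rpl41, Rpl24, Rps23, Rps28, Rps27 and Rps27l in vehicle and at 3, 10 and 30 µg/kg TCDD, each axis starting at 0. For Rpl41 and Rps28 the first 3 groups lie together below the 30 µg/kg libraries, Rps23 is above vehicle at every dose, and the groups of Rpl24 and of Rps27l overlap.

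In the small subunit 27 of 31 genes rose at 30 µg/kg, 0 fell and 4 were not called, with a median of 0.93. Rps23 (ENSMUSG00000049517, chr13:90922958-90924950), a protein of the decoding centre, had the largest change. It had 16.2, 13.2 and 13.6 CPM in vehicle, 27.9, 41.9 and 30.3 at 3, 25.4, 25 and 27.5 at 10, and 49.5, 54.7 and 45.2 at 30 µg/kg. All 9 TCDD libraries were above the vehicle libraries, and the lowest dose lay above the middle one. The log2 change was 1.22 ± 0.15 at 3 (adjusted p = 0.00424), 0.86 ± 0.15 at 10 (adjusted p = 0.019) and 1.80 ± 0.15 at 30 µg/kg (adjusted p = 2.4e-05). The call at 10 µg/kg was lost without any library compared other than vehicle replicate 1, and the call at 3 µg/kg when the fit held the vehicle and 3 µg/kg libraries only (adjusted p = 0.094). It was the only member called at 3 µg/kg, and 51.7% of its 50-base stretches occurred in other genes.

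Rps28 (ENSMUSG00000067288, chr17:33819027-33824562), a short protein near the messenger RNA exit, had 12.7, 13.2 and 10.2 CPM in vehicle. Levels of 10.3, 9.69 and 8.75 followed at 3, of 10.4, 10.8 and 10.1 at 10, and of 39.7, 38.1 and 39.3 at 30 µg/kg. The lower doses lay within or below the vehicle range, with log2 changes of -0.34 and -0.21 that did not pass the test, and 30 µg/kg lay 3.23-fold above it (1.69 ± 0.11, adjusted p = 3.96e-06). Rps26 rose by 1.54 ± 0.10, and Rps29, a zinc-binding protein of the head of the subunit, by 1.46 ± 0.12. Rps24 had 69.4, 67.0 and 72.3 CPM in vehicle and 202, 201 and 193 at 30 µg/kg, a rise of 1.51 ± 0.10 (adjusted p = 4.77e-06).

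Rps6, the substrate of the S6 kinases, had 41.4, 44.8 and 44.0 CPM in vehicle and 65.6, 74.4 and 67.2 at 30 µg/kg. The groups did not overlap and it rose by 0.67 ± 0.10 (adjusted p = 0.00181), a call that was lost once a trend with exon length (0.56) or mature transcript length (0.49) and GC content was removed. Rps27a, which is made as a fusion with ubiquitin, rose by 1.01 ± 0.11, and Rpsa, also known as the laminin receptor, by 0.76 ± 0.13. Rps15a rose by 0.75 ± 0.11. Rps19, a gene mutated in Diamond-Blackfan anaemia, rose by 0.72 ± 0.16 (adjusted p = 0.021). That call was lost without vehicle replicate 1 (adjusted p = 0.064), vehicle replicate 3 (0.090), 30 µg/kg replicate 1 (0.051) or 30 µg/kg replicate 2 (0.078), and with the mature length trend removed (0.10). Rps3, which carries an extraribosomal role in DNA repair, had a log2 change of 0.38 ± 0.13 (adjusted p = 0.10), and X-linked Rps4x one of 0.42 ± 0.11 (adjusted p = 0.038). Neither was called.

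Of the 5 paralogs and other genes of the name that were tested, 1 rose and 0 fell, and their median was 0.33, against 0.82 for the 77 core genes. Rpl36al rose by 1.19 ± 0.15 (adjusted p = 4.5e-04), from 17.5, 16.5 and 15.7 CPM in vehicle to 35.8, 38.1 and 39.0 at 30 µg/kg. Rpl36a, from which it differs at the 39 coding bases given above, rose by 1.02 ± 0.12 (adjusted p = 2.4e-04). Rps27l, a target of p53, had 35.7, 34.7 and 33.4 CPM in vehicle and 47.0, 32.3 and 41.2 at 30 µg/kg, and its groups overlapped (0.22 ± 0.16, adjusted p = 0.47). Rps27 had 28.5, 26.2 and 25.7 CPM in vehicle and 50.4, 54.9 and 46.3 at 30 µg/kg, a rise of 0.91 ± 0.11 (adjusted p = 3.5e-04). The difference in response between Rps27 and Rps27l was not tested. Of their 50-base stretches, 98.6% and 22.4% occurred in other genes, so the counted reads may cover unlike parts of the transcripts. Rps27rt, identical to Rps27 in its coding bases, had 6, 12 and 6 counts in vehicle and 5, 1 and 18 counts at 30 µg/kg. The log2 changes of Rpl22l1 (0.44 ± 0.22, adjusted p = 0.27), Rps19bp1 (0.33 ± 0.21, adjusted p = 0.39) and Rpl7l1 (0.04 ± 0.12, adjusted p = 0.90) did not pass the test.

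Levels can be compared between genes only per length. Per kilobase of all annotated exons joined, the 82 tested members ranged from 3.57 to 146 RPKM in vehicle, with a median of 25.6. The highest were Rpl38 and Rpl4 (both 146), Rplp1 (134), Rps15 (114) and Rplp0 (94.2), and the lowest of those tested were Rpl22l1 (3.57), Rps19bp1 (3.71) and Rps15a (4.11). At 30 µg/kg the median was 42.9 RPKM and Rpl38, at 363, was first. For Rps15a the joined exons (6270 nt) and the principal transcript (5179 nt) both far exceed the coding length of 390 nt.

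The change was then set against transcript length, because other short genes were also higher at 30 µg/kg. Among other protein-coding genes, the median log2 change at 30 µg/kg was 1.04 for those with under 600 nt of joined exon, 0.37 from 600 to 1000, 0.19 from 1000 to 1500, 0.09 from 1500 to 2500 and -0.03 from 2500 nt on. In the same classes the medians of the ribosomal protein genes were 1.32 (3 genes), 1.00 (8 genes), 0.96 (16 genes), 0.78 (30 genes) and 0.75 (25 genes). Of the other genes with under 600 nt, 44 of 89 were called higher, and of those with 2500 nt or more, 156 of 10611 were. Among tested members the shortest by joined exons, Rpl36 (383 nt), had a log2 change of 1.48 and the next, Rplp1 (499 nt), one of 0.68. Members that were long by joined exons varied as much, Rps24 (6256 nt) having 1.51 and Rps15a (6270 nt) 0.75. The principal transcript of Rps24 has only 1613 nt, with 399 nt of coding sequence, and that of Rps15a has 5179 nt.

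Each member was also compared with the median of other protein-coding genes in its own length class. By joined exons 79 of 82 lay above that median, by 0.72 at the median of the members. By the length of the principal mature transcript 79 of 82 lay above it, by 0.53, and by coding length 81 of 82, by 0.72. In the class of mature transcripts under 600 nt the 19 members had a median of 1.02 and the 158 other genes one of 0.67. Across the 82 members the Spearman correlation of the change at 30 µg/kg was -0.59 with coding length, -0.30 with mature transcript length and -0.24 with joined exon length. These points share the same libraries. Across 13162 other protein-coding genes the correlation was -0.15 with coding length, -0.24 with mature transcript length and -0.22 with joined exon length. When a trend with joined exon length and GC content was removed within each library, 56 members were called at 30 µg/kg with a median of 0.73. With mature transcript length in its place, 49 were called with a median of 0.67.

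**Figure D4:**
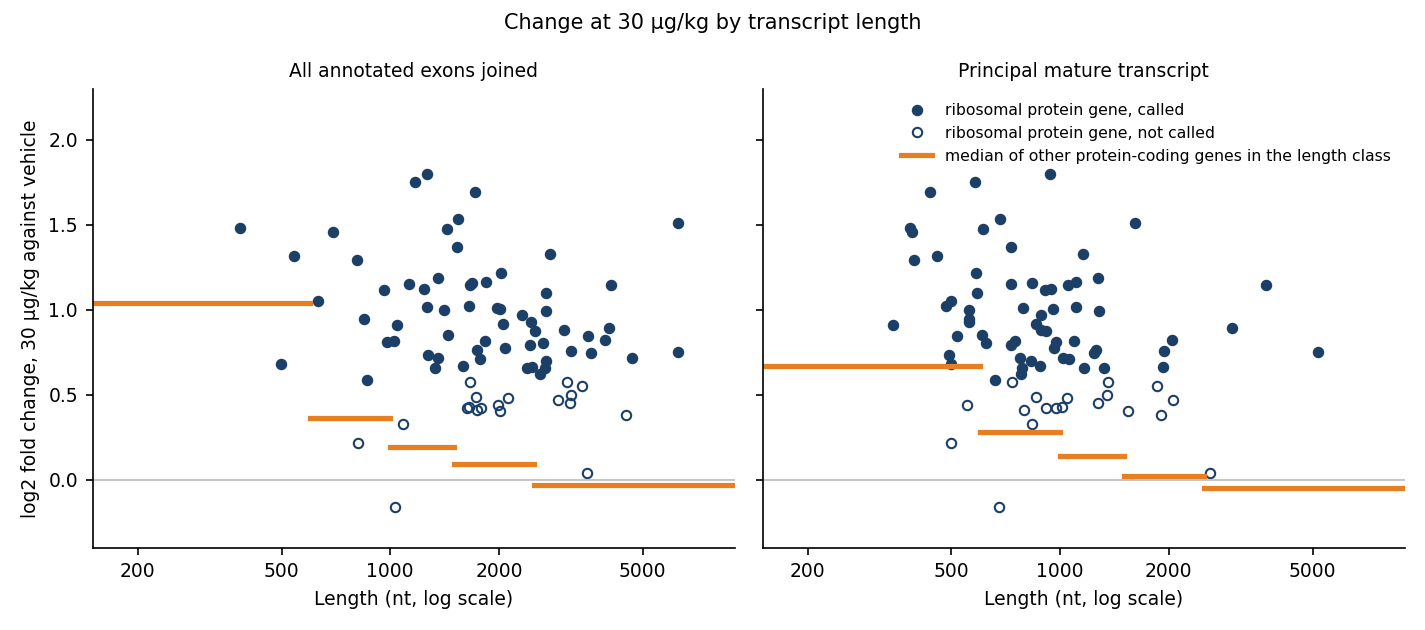
Log2 fold change at 30 µg/kg against vehicle of the 82 ribosomal protein genes (points, filled where called) by length in nt on a log axis, with all annotated exons joined (left) or the principal mature transcript (right). Orange lines give the median of other protein-coding genes in each length class, which falls from 1.04 to -0.03 on the left, and 79 of 82 members lie above the line of their class in each panel.

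The members were further described by features the rule did not use. The 8 members that shared under 10% of their 50-base stretches with other genes had a median of 0.44 at 30 µg/kg, and 3 of them were called. These 8 also differ in other ways. Their median mature transcript length was 1979.5 nt, against 882 nt for all tested members, and they include Rpl7l1 and Rps19bp1, which are not core members. The 41 that shared 10 to 50% had a median of 0.90 with 35 called, and the 33 tested that shared 50% or more had a median of 0.81 with 25 called. The Spearman correlation of this share with the change was 0.04. The 32 members with a run of at least 8 pyrimidines near the annotated start, on either side of it, had a median of 0.84 with 26 called. The 30 tested without one had a median of 0.83 with 21 called. Some of these runs lie wholly before the start, as in Rpl39, so this is not a split by TOP motif. The 4 members on the X chromosome, Rpl10, Rpl36a, Rpl39 and Rps4x, had a median of 0.97 and 3 were called. The annotation places a gene on the opposite strand across 24 of the 83, and reads of such a pair cannot be told apart where strand was not used in counting. The 59 members with no such neighbour had a median of 0.78 with 43 called.

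Introns of ribosomal protein genes are known to carry small nucleolar RNAs (snoRNAs), which guide the modification of ribosomal RNA. The annotation places 58 of them inside the members on the same strand, and 11 passed the filter on low counts. At 30 µg/kg 1 of the 11 rose, Gm26448 within Rpsa, by 0.94 ± 0.24 (adjusted p = 0.035), and 0 fell. The median log2 change of the 11 was 0.70 at that dose, with 8 above 0, and standard errors were between 0.24 and 0.66. At 3 and 10 µg/kg the medians were -0.71 and -0.46, with 0 called. The highest counted of the 11, Snord15a within Rps3, had a change of 0.06 ± 0.25 at 30 µg/kg (adjusted p = 0.92). Whether these snoRNAs followed their host genes was not tested. Of 268 pseudogenes named for ribosomal proteins, 4 were tested and 0 were called at 30 µg/kg by edgeR, DESeq2 or limma-voom, with 0 at an unadjusted p under 0.05 and a median of -0.12.

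Other genes of protein synthesis were read from lists chosen with earlier results of these data known. Fau (0.87 ± 0.11), which is fused to a ubiquitin-like protein, and Rack1 (0.59 ± 0.09), a signalling scaffold on the small subunit, are examples of ribosomal proteins without an Rpl or Rps name, and both rose at 30 µg/kg. Of 37 translation factors 3 rose and 0 fell, with a median of 0.30. Those were Eef1a1 (0.75 ± 0.09) and Eef1b2 (0.74 ± 0.09), which deliver aminoacyl-tRNA and recycle its carrier, and Naca (0.61 ± 0.10), a chaperone of nascent chains. Of 52 genes of ribosome biogenesis 3 rose and 0 fell, with a median of 0.34, and these were Nop10 (1.49 ± 0.26) and Gar1 (1.2 ± 0.28) of the pseudouridylation complex and Npm1 (0.80 ± 0.20), a nucleolar chaperone. The 3 became 6 by DESeq2, and 1 without vehicle replicate 2, vehicle replicate 3, 30 µg/kg replicate 1 or 30 µg/kg replicate 3. Of 19 regulators of ribosomal protein expression 0 were called by edgeR in either direction, with a median of 0.03 and 1 higher and 1 lower at an unadjusted p under 0.05. Without a filter on low counts, with the clock score, with the compared groups alone, and by limma-voom and DESeq2, 1 was called.

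Gene families outside the cytosolic ribosome were read beside these, and they differ in length. Median joined exon length was 2533 nt for the mitochondrial ribosome and 1675 nt for the respiratory chain, against 1775.5 nt for the tested members. Median mature transcript length was 1316, 861 and 882 nt in the same order. Of 77 proteins of the mitochondrial ribosome 6 rose at 30 µg/kg and 0 fell, with a median of 0.32, and Mrpl52 had the largest change among the 6 (1.00 ± 0.14). Of 83 respiratory chain genes 21 rose and 0 fell, with a median of 0.37. Removal of the trend with joined exon length and GC content left 3 and 11 of these called, and 3 of the mitochondrial ribosome were called without vehicle replicate 2 or without 30 µg/kg replicate 3.

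**Figure D5:**
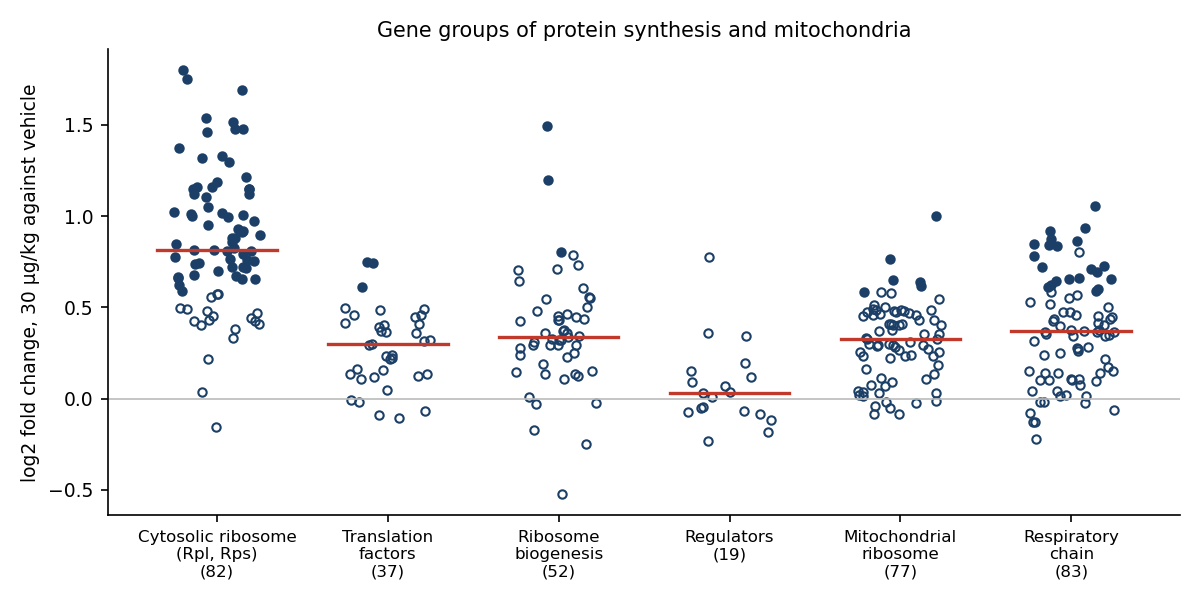
Log2 fold change at 30 µg/kg against vehicle for 82 cytosolic ribosomal protein genes, 37 translation factors, 52 biogenesis genes, 19 regulators, 77 mitochondrial ribosomal protein genes and 83 respiratory chain genes. Filled points are called genes and red lines are medians, at 0.81, 0.30, 0.34, 0.03, 0.32 and 0.37.

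Cell type markers and classes of reads were compared between vehicle and 30 µg/kg, and their part in the ribosomal protein result was not tested. Of the 10 Paneth cell markers, Lyz1 among them, 9 were called higher at 30 µg/kg. Their summed CPM was 744 to 1145 in vehicle and 2466 to 3498 at 30 µg/kg, and none of the 10 was at 0. Goblet cell markers had 4 of 9 called higher (12361 to 16269 in vehicle, 16183 to 18069 at 30 µg/kg), and enteroendocrine markers 5 of 10 (176 to 209 and 266 to 319). The 12 proliferation markers had 0 called by edgeR (286 to 334 and 360 to 509), though 7 were higher at an unadjusted p under 0.05 and 1 was called under 8 other settings, DESeq2 and limma-voom included. Of 11 T cell markers 2 were called higher, Cd3g and Gzmb, and 1 lower, Ptprc (267 to 301 and 315 to 382). Of 10 B and plasma cell markers 0 were called by edgeR, with 6 lower at an unadjusted p under 0.05 and 3 called lower by DESeq2, and their median log2 change was -1.50 (1225 to 2407 and 1509 to 1849). Of 10 genes of pancreatic acinar cells 5 were tested, 1 was called higher and 3 lower (14.8 to 20.8 and 19.5 to 31.9). The 8 stem cell markers had 0 called by edgeR at 30 µg/kg, with a median log2 change of 0.24 (251 to 338 and 349 to 412). The 13 ileal enterocyte markers also had 0 called, with a median of 0.03 (33992 to 36269 and 34271 to 39467). So did the 8 smooth muscle markers (median -0.34) and the 7 fibroblast markers tested (median -0.37). None of these lists had a marker at 0. Some of the sums also lay above the vehicle range at the lower doses. Paneth markers had 1265 to 1747 and proliferation markers 399 to 544 at 10 µg/kg, above vehicle. At 3 µg/kg they had 709 to 2116 and 239 to 553, which spanned the vehicle ranges. T cell markers had 317 to 396 at 3 and 343 to 406 at 10 µg/kg, above vehicle at both. In these lists 0 markers were called by edgeR at 3 or 10 µg/kg. The sum of the B and plasma cell markers at 30 µg/kg lay within the vehicle range. In bulk libraries such as these, more cells of a type and more RNA per cell cannot be told apart. The lists also differ in length. Median joined exon length was 751.5 nt for Paneth, 1291 nt for goblet and 1276.5 nt for enteroendocrine markers. It was 2929 nt for T cell, 2201.5 nt for B and plasma cell and 4441.5 nt for proliferation markers, and 3991 nt for all genes tested. The part of length in the marker changes was not tested. As a percent of all entries, the entry for more than 1 alignment was 33.8% ± 1.2 in vehicle and 37.7% ± 1.3 at 30 µg/kg. The entry for reads outside annotated genes was 29.4% ± 0.02 and 25.2% ± 0.2 (SD, n = 3 each). Whether a read with several alignments entered once or more was not examined.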

How the data were processed

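RNA-Seq was performed on 12 libraries of proximal ileal epithelium, 3 per dose group. The deposited files hold, for each library, raw counts of reads on Ensembl genes that were not normalised. The submitters' processing notes name FastQC 0.11.3, Trimmomatic 0.33, TopHat2 2.1.0, SAMtools 1.2.0, HTSeq 0.6.1, DESeq and build GRCm38. The annotation release and the strand setting of the counting are not given in the sources used here. The authors kept reads that matched no gene, several genes or more than 1 place in entries of their own, and these entered neither library sizes nor tests. Libraries were made from total RNA. The labels call the samples biological replicates and pair no animals, and replicate numbers were given in accession order. Libraries with the same replicate number carried the same index sequence in every group.

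Symbols, positions, biotypes and lengths came from GENCODE M21 (45229 of 46078 identifiers matched, and the unmatched held 0.510% to 1.09% of gene counts). Counts were filtered with filterByExpr, scaled by TMM factors (a trimmed mean of log ratios) and fitted with edgeR 4.0.16 (quasi-likelihood) in R 4.3.3 over all 12 libraries. P-values were adjusted by Benjamini-Hochberg over the 15823 genes tested, and a gene was called at an adjusted p under 0.05 and a change of at least 1.5-fold. The model was tested on simulated data. The F statistic of each test gave the standard error. CPM values are TMM-scaled, while summed marker levels use the plain total of gene counts. Shares and medians over members are descriptions without a test. Standard errors and SDs reflect the spread between libraries.

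Members, lists and tests were chosen with earlier results of these data known. The genes named were a fixed list of 28, the 8 largest rises among called members at 30 µg/kg (there were no called falls), and the 3 shortest and 3 longest tested members by joined exons. Genes outside the rule are introduced as such or given as examples of a count. Alternatives were scaling by median of ratios or by upper quartile, TMM without these genes, no filter, at least 10 counts in every library, DESeq2 1.42.0, limma-voom (limma 3.58.1), the compared groups alone, a clock gene score, the library index as a block, removal of length and GC trends, and leaving out each library. Removal by mature transcript length, coding length, and the choice of members by shared 50-base stretches were added after seeing the data. The RefSeq promoter table held 63 of the 83 genes. Values of some single genes are not reported here.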

Additional observations from a re-analysis of the deposited data

Results flagged for a closer look

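Reads aligned to more than 1 place lie outside the gene counts used above and made up 37.7% of all entries at 30 µg/kg as the mean of 3 libraries (36.2% to 38.8%), against 33.8% in vehicle (32.5% to 34.6%), 32% at 3 and 33.0% at 10 µg/kg. The result was singled out because these entries enter no comparison and all 3 libraries of 30 µg/kg exceeded all 3 of vehicle. Which genes these reads came from was not analysed here.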

How the results depend on the processing

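At 30 µg/kg the number of ribosomal protein genes called higher was 63 and ranged from 49 to 63 over 12 alternatives and from 59 to 66 when 1 library was left out, with 0 lower in each. The median log2 change (0.81) became 0.67 with the trend of mature transcript length and GC content removed and 0.44 in the 8 members with little shared sequence, and ranged from 0.81 to 0.84 without 1 library. Those 8 also have longer mature transcripts at the median and include Rpl7l1 and Rps19bp1, which are not core members. From 10 to 30 µg/kg, 49 became 32 with the mature length trend removed, and the median (0.69) became 0.55 with the joined exon trend removed, 0.47 with the mature length trend removed and 0.37 in the 8 members. Without 1 library the counts were 42 to 48 and the medians 0.63 to 0.73. The 57 called slopes became 34 to 60 without 1 library, with 37 without 30 µg/kg replicate 1 and 34 without replicate 2. At 3 µg/kg the 1 gene called became 2 without a filter, with the clock score and by DESeq2, 3 and 4 with the joined exon and mature length trends removed, and 0 in the compared groups alone, and was 1 to 3 without 1 library (3 without 3 µg/kg replicate 1). At 10 µg/kg the 3 genes became 1 with the index block and 0 to 1 without any 1 of the 6 libraries compared. The excess over other genes of the same length class (0.72) became 0.53 by mature transcript length. Without the paralogs the share of counts at 30 µg/kg was 0.798%. Of 33 named genes, 12 calls were lost and 3 gained over all settings, and Rpl7l1 (0.04, not called) turned to -0.048 without 30 µg/kg replicate 1, with a range of -0.048 to 0.10 without 1 library. The causes of these moves were not tested. No paired analysis was possible because the labels give no replicate numbers that pair animals. The index block grouped libraries that carried the same index sequence, which is the same grouping as by replicate number. Scaling moved the median of all genes by no more than 0.02. Depth limits Rps27rt, Rpl24, Rpl22l1 and Rps19bp1 most, and all members through reads set aside for aligning to several places.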
